A study of Homo sapiens with 9 samples.

Results

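HSP70 and HSP110 chaperones are the genes described here, 10 in all among the 60591 gene symbols of the count table. They are the cytosolic and nuclear HSP70 proteins HSPA1A, HSPA1B, HSPA1L, HSPA2, HSPA6 and HSPA8, the larger HSP110 proteins HSPA4, HSPA4L and HSPH1, and the cochaperone BAG3, and each was found by its symbol. The set was chosen by measured values, because its rise with CoCl2 in these same libraries was already known, so the values below describe the genes and no p-value is given for any of them. They were divided into 5 stress-inducible genes (HSPA1A, HSPA1B, HSPA6, HSPH1 and BAG3) and 5 constitutive genes (HSPA8, HSPA4, HSPA4L, HSPA2 and HSPA1L). The division follows textbook knowledge of heat induction and not these data. Constitutive means here only that a gene was not counted as stress-inducible, and other divisions are possible.

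HSP70 proteins bind unfolded stretches of other proteins in a cycle driven by ATP. J-domain proteins bring substrates to them and start ATP hydrolysis, and exchange factors such as the HSP110 and BAG proteins release the ADP so that the substrate can be let go. HSPA8 does this work in unstressed cells. When unfolded proteins accumulate, heat-shock factor HSF1 binds heat-shock elements, inverted repeats of the letters GAA, in front of the inducible genes.

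The study exposed uCaco-2, which are undifferentiated, proliferating cells of the human colon adenocarcinoma line Caco-2, to chemicals known to activate the hypoxia-inducible factor. Control cells received neither compound, others received 300 μM CoCl2 or 5 μM of the oxyquinoline derivative OD, all in medium with 0.5% DMSO for 24 h and each group in 3 biological replicates. Both compounds were given at 1 dose and 1 time to 1 cell line, and the doses are not matched. The paper treats them as a chemical model of hypoxia, and low oxygen itself was not applied. It also names reactive oxygen species as a possible side effect of CoCl2 beside stabilisation of the factor. Differentiated cells were not analysed here.

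Total counts per library lay between 15998136 and 24209427. CoCl2 changed the composition of the RNA, with 21.7 to 22.3% of counts in the 50 most abundant genes, against 15.7 to 16.1% in Control and 16.1 to 16.2% with OD. Levels are given as counts and as CPM, counts divided by a library total that the TMM factors of edgeR adjust. These factors correct for such shifts and were 0.770 to 0.795 with CoCl2 and 1.11 to 1.15 in the other groups. Epithelial markers summed to 9995 to 10459 CPM in Control, 11745 to 12607 with CoCl2 and 9456 to 9978 with OD over 7 genes, most of it KRT8 and KRT18. VIL1 and KRT20, markers of enterocytes, were lower with CoCl2. VIL1 was at 596 to 632 CPM in Control, 108 to 119 with CoCl2 and 445 to 460 with OD. KRT20 was at 4.09 to 4.88, 1.06 to 2.86 and 5.50 to 5.99 CPM in the same order. The rest of the list was not lower with CoCl2. EPCAM was at 738 to 779 CPM in Control and 958 to 972 with CoCl2, and CDH1 at 954 to 1012 and 1178 to 1219. KRT8 and KRT18 were also higher without overlap, and CDX2 overlapped (50.9 to 58.9 and 56.5 to 64.6 CPM). Of the markers of other cell types, COL1A2 and DCN of fibroblasts had at most 2 counts, PTPRC of leukocytes had at most 3 and the 3 endothelial markers summed to 2.25 to 3.41 CPM, while COL1A1 had 135 to 480 counts and LYZ 639 to 985. The 3 fibroblast markers summed to 13.4 to 16.6 CPM in Control, 9.39 to 11.1 with CoCl2 and 21.0 to 22.4 with OD, and the 3 leukocyte markers to 33.0 to 37.9, 49.7 to 53.4 and 33.0 to 37.2, nearly all of it COL1A1 and LYZ. The part of these shifts in the results was not tested.

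The 250 bases in front of the transcription start are shown for the 3 genes with the largest fitted changes, since heat-shock elements are known to lie there. They come from RefSeq on GRCh38.p14, where all 10 genes had a window, read 5′ to 3′ on the strand of the gene, with pairs of inverted GAA units (GAANNTTC or TTCNNGAA) and longer elements in capitals.
HSPA1A: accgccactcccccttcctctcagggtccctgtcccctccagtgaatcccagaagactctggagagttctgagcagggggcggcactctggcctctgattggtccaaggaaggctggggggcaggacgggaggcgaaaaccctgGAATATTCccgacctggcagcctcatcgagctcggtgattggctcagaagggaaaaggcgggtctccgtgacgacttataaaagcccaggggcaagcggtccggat
HSPA1B: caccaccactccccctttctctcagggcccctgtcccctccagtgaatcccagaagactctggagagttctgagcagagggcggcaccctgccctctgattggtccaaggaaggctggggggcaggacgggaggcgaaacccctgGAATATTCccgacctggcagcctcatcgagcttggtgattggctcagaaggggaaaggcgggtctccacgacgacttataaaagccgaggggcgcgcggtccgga
HSPA6: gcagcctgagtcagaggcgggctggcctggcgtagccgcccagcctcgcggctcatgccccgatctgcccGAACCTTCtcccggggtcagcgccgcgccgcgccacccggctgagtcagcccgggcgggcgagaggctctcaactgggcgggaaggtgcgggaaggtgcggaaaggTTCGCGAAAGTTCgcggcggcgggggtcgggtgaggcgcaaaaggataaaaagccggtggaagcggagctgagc
The HSPA1A window is chr6:31815293-31815542 and the HSPA1B window chr6:31827488-31827737, and the HSPA6 window is chr1:161524290-161524539, all on the plus strand and ending at the base before the gene. The windows of HSPA1A and HSPA1B were identical in 235 of 251 aligned columns (93.6%), and both held GAATATTC about 100 bases in front of the start, from 106 to 99 bases in HSPA1A and from 105 to 98 in HSPA1B. HSPA6 held the 3-unit element TTCGCGAAAGTTC from 74 to 62 bases upstream and a further pair, GAACCTTC, from 180 to 173.

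Among the 10 genes, the 3-unit element (GAANNTTCNNGAA or TTCNNGAANNTTC) was found in HSPA6 and HSPA8 and in 0.441% of all 35116 windows of the same length. HSPA8 held GAAAGTTCCAGAA from 230 to 218 bases upstream and TTCTGGAAGGTTC from 55 to 43, on chr11:123062137-123062386 of the minus strand, a stretch that other annotated HSPA8 transcripts partly cover. The 2-unit pair, which was added to the search after the windows had been seen, lay in 6 of the 10 genes (HSPA1A, HSPA1B, HSPA6, HSPA1L, HSPA4L and HSPA8) and in 11.6% of all windows. Each 3-unit element holds 2-unit pairs, so both counts share letters. HSPA1L stands head to head with HSPA1A on the opposite strand, and 241 of the 250 bases of its window (96.4%) are those of HSPA1A, its GAATATTC included. By class, the pair was in 3 of 5 inducible and 3 of 5 constitutive genes, and the 3-unit element in 1 of each.

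The core of the hypoxia-response element (ACGTG or GCGTG, either strand) was found in BAG3, HSPA4 and HSPA4L and in 43.2% of all windows. TATAAA, on either strand, was found in HSPA1A, HSPA1B, HSPA1L and HSPA4L and in 10.7% of all windows. In HSPA1L it reads TTTATA, from 235 to 230 bases upstream, and is the TATAAA of HSPA1A in the shared stretch. A match describes only the letters in the window. HSPA4L had 3 windows, which were read together.

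With CoCl2, 9 of the 10 genes were called higher and 0 lower, called meaning an adjusted p under 0.05 in the quasi-likelihood test of edgeR together with an absolute log2 fold change over 1. Of all 15944 genes tested, 19.9% were called higher and 23.4% lower. Of all genes called, 46% were thus higher, and 23.9% on library size alone, where the median of all genes tested was -0.55 on the log2 scale. As the set was selected on this comparison, nothing is read from its count. The median log2 fold change was 6.51 over the inducible genes and 1.49 over the constitutive genes. It was 2.60 over all 10 and -0.05 over all genes tested. Medians over the inducible genes and over all 10, here and below, include HSPA6. That gene passed the filter on low counts only through its CoCl2 libraries. In each of the 10 genes every CoCl2 library lay above every Control library, and 83.4% of all genes tested had groups that did not overlap in either direction. Higher counts in such a mixed extract can come from more RNA per cell or from more cells that make it, which cannot be told apart.

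HSPA1A, the major stress-inducible HSP70, had 626, 608 and 602 counts in the Control libraries and 83840, 63536 and 90197 with CoCl2. It stood at 32.4 ± 2.26 CPM (SD, n = 3) in Control and 4954 ± 245 with CoCl2, a 153-fold ratio of the means. Its fitted log2 fold change was 7.26 (SE 0.057). The lowest CoCl2 library, at 4730 CPM, was thus far above the Control libraries at 29.8 to 33.8 CPM. HSPA1B, which encodes an almost identical protein, had 297, 335 and 323 counts in Control and 25006, 20440 and 27801 with CoCl2. Its level rose from 16.8 ± 1.13 to 1532 ± 65.3 CPM, 91.0-fold, with a log2 fold change of 6.51 (SE 0.059).

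HSPA6, an HSP70 that cells are known to express almost only under stress, had 1 count in each Control library and 3520, 2673 and 4025 counts with CoCl2. The 10218 counts summed over the CoCl2 libraries were 4026 times the 3 Control counts after scaling, with a 95% exact interval of 1377 to 19523 that covers counting error only. The fitted log2 fold change of 11.80 (SE 0.140) was the highest of all genes tested, but with so few Control counts it depends on the prior count that the fit adds. HSPA6 passed the filter on low counts only through its CoCl2 libraries, while the other 9 genes passed without them. Its level with CoCl2, 212 ± 6.15 CPM, varied little between the 3 libraries.

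HSPH1, the inducible HSP110 that recharges HSP70 with ATP, had 6469, 7846 and 6852 counts in Control and 39042, 32139 and 42510 with CoCl2. It rose from 372 ± 21.1 to 2382 ± 135 CPM, 6.40-fold, with a log2 fold change of 2.68 (SE 0.044). BAG3, the exchange factor that links HSP70 to small heat-shock proteins and autophagy, had 884, 936 and 894 counts in Control and 10284, 7659 and 11426 with CoCl2. It rose from 47.9 ± 2.15 to 611 ± 25.5 CPM, 12.8-fold, with a log2 fold change of 3.67 (SE 0.047). Both genes were well expressed before treatment, unlike HSPA6, and their fold changes were below those of the 3 inducible HSP70 genes.

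**Figure D1:**
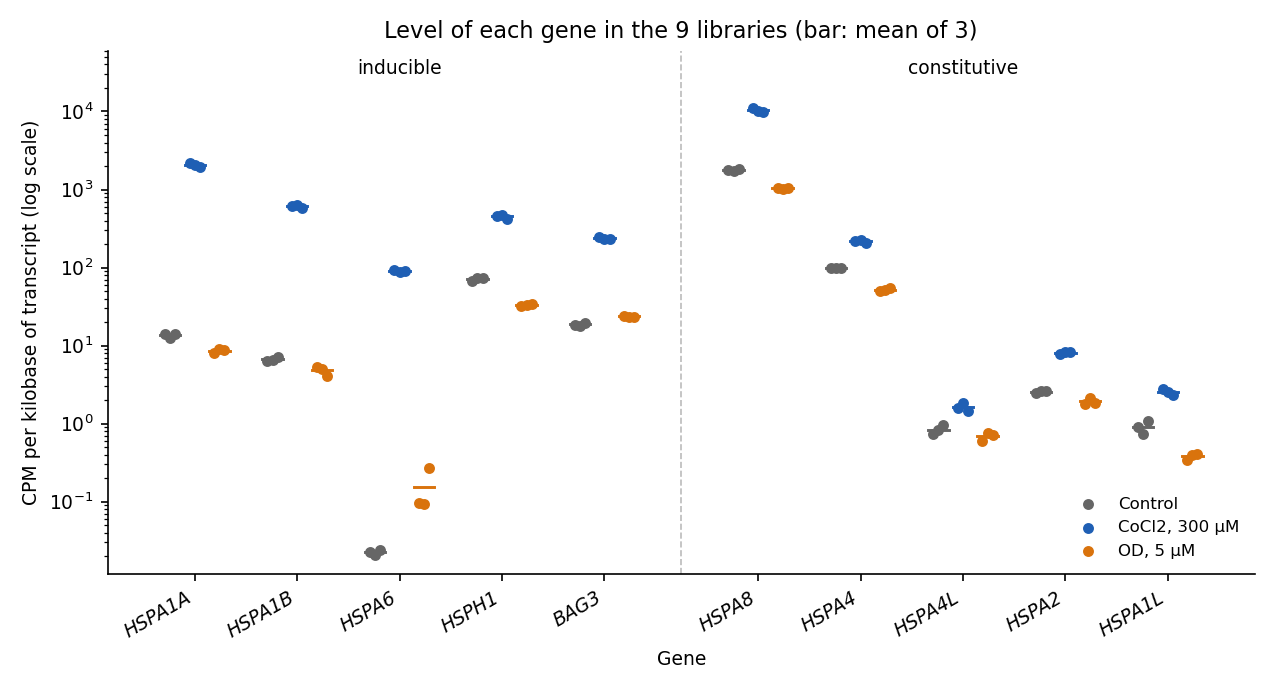
Level of each of the 10 genes in the 9 libraries, in CPM per kilobase of the canonical transcript on a log axis, with 1 point per library, a bar at the mean of 3 and the inducible genes on the left. The CoCl2 points (blue) lie above all other points of their gene, and HSPA6 goes from the lowest level in Control to between HSPA4 and HSPA2 with CoCl2.

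Among the constitutive genes HSPA8 carried most of the RNA. HSPA8, the HSP70 of unstressed cells, had 75935, 80908 and 73740 counts in Control and 407529, 295842 and 422055 with CoCl2. It rose from 4063 ± 87.2 to 23459 ± 1683 CPM, 5.77-fold, with a log2 fold change of 2.53 (SE 0.045), close to that of the inducible HSPH1. By raw counts it was the tenth most abundant gene (rank 10) in each Control library and the most abundant (rank 1) in each CoCl2 library. HSPA1A moved from ranks 5436 to 5865 in Control to ranks 17 and 18 with CoCl2.

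HSPA4, an HSP110 present in most tissues, had 8681, 9532 and 8336 counts in Control and 16981, 13742 and 18752 with CoCl2. It rose from 467 ± 0.274 to 1034 ± 44.4 CPM, 2.21-fold, with a log2 fold change of 1.15 (SE 0.040), just past the threshold. Without the TMM factors, on library size alone, its change was 0.64 and no longer called. HSPA4L, its close relative, had 146, 179 and 180 counts in Control and 273, 249 and 293 with CoCl2. At 8.91 ± 1.13 and 17.2 ± 1.96 CPM its log2 fold change was 0.94 (SE 0.100), which missed the fold threshold although the groups did not overlap. Without Control replicate 3 or without CoCl2 replicate 3 it passed, at 1.02 in both cases.

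HSPA2 and HSPA1L, HSP70 genes known for their expression in testis, were at low levels in all groups. HSPA2 had 114, 132 and 115 counts in Control and 309, 266 and 395 with CoCl2, and rose from 6.35 ± 0.189 to 20.2 ± 0.826 CPM, a log2 fold change of 1.67 (SE 0.096). HSPA1L had 46, 42 and 53 counts in Control and 124, 90 and 121 with CoCl2, from 2.50 ± 0.458 to 7.01 ± 0.685 CPM, and its log2 fold change of 1.49 (SE 0.153) was 0.98 and not called on library size alone. Both were thus higher in every CoCl2 library, with wider standard errors than HSPA8 or HSPA4, which had far more counts.

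**Figure D2:**
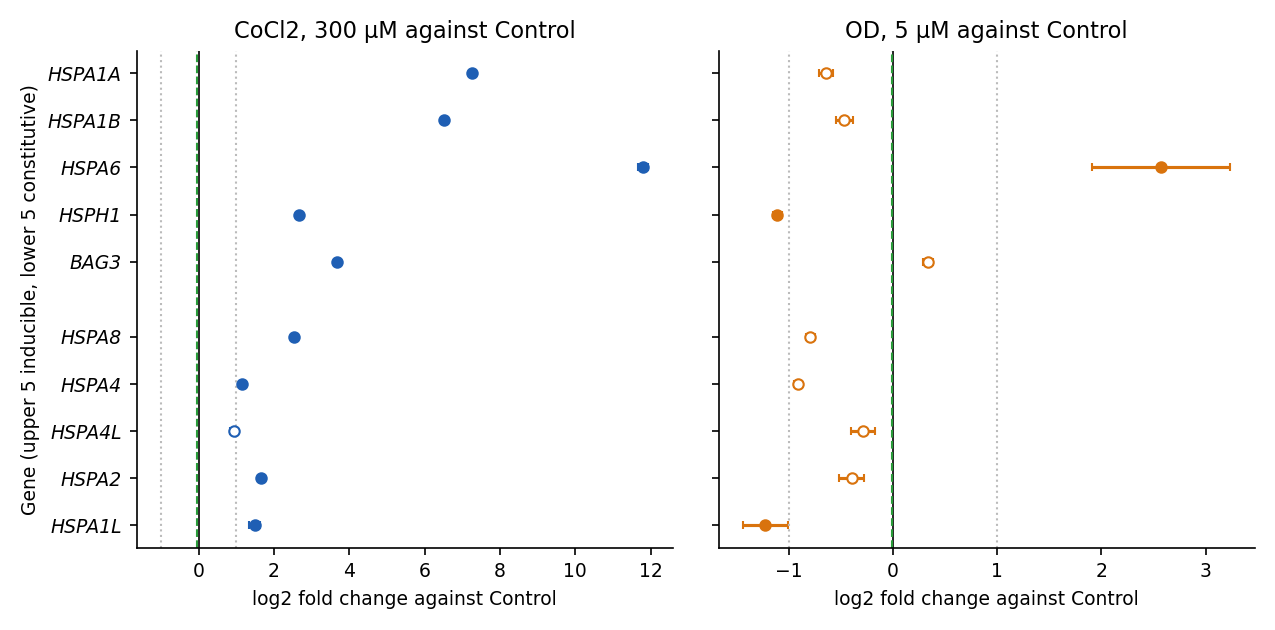
Fitted log2 fold change of each gene against Control with CoCl2 (left) and OD (right), on axes of different range, with bars of 1 SE, filled points for called genes, dotted lines at the fold threshold and a green dashed line at the median of all genes tested. With CoCl2 all points lie right of 0, and with OD all but HSPA6 and BAG3 lie left of it.

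Per kilobase of the canonical transcript, which allows levels of different genes to be compared as far as that length holds, HSPA8 led in every group. The place of HSPA4L rests on its length of 10.6 kilobases, against 2.76 for HSPA1L. In CPM with CoCl2, HSPA4L (17.2) stood above HSPA1L (7.01). The order in Control was HSPA8 (1794 CPM per kilobase), HSPA4 (97.9), HSPH1 (71.0), BAG3 (18.7), HSPA1A (13.5), HSPA1B (6.69), HSPA2 (2.54), HSPA1L (0.906), HSPA4L (0.840) and HSPA6 (0.0225). Only HSPA1L and HSPA4L overlapped as neighbours in that order. With CoCl2 the order became HSPA8 (10362), HSPA1A (2064), HSPA1B (609), HSPH1 (454), BAG3 (238), HSPA4 (217), HSPA6 (90.1), HSPA2 (8.08), HSPA1L (2.54) and HSPA4L (1.62), and no neighbours overlapped. The inducible HSP70 genes thus passed HSPA4, HSPH1 and BAG3, with the exception of HSPA6, but not HSPA8. In absolute terms HSPA8 also gained most, with a difference of 8567 CPM per kilobase between CoCl2 and Control, against 2051 for HSPA1A, 602 for HSPA1B, 383 for HSPH1 and 220 for BAG3. HSPA6, first by fold, gained 90.1 CPM per kilobase.

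The 10 genes together took 0.558% ± 0.0104 (SD, n = 3) of all counts in Control, 2.68% ± 0.128 with CoCl2 and 0.328% ± 0.00426 with OD. The inducible genes took 0.0522% ± 0.00260 in Control and 0.759% ± 0.0277 with CoCl2, and the constitutive genes 0.506% ± 0.00951 and 1.92% ± 0.106. Constitutive genes, mainly HSPA8, therefore held most of the gain in counts although the inducible genes had the larger folds. HSPA8 made up 80.5 to 81.5% of the counts of the set in Control and 67.8 to 69.4% with CoCl2. HSPA1A made up 0.605 to 0.672% of them in Control and 14.3 to 14.6% with CoCl2. Inducible counts per constitutive count were 0.103 ± 0.00511 in Control and 0.395 ± 0.0139 with CoCl2. HSPA1A counts per HSPA8 count were 0.00797 in Control, 0.211 with CoCl2 and 0.00885 with OD on average.

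**Figure D3:**
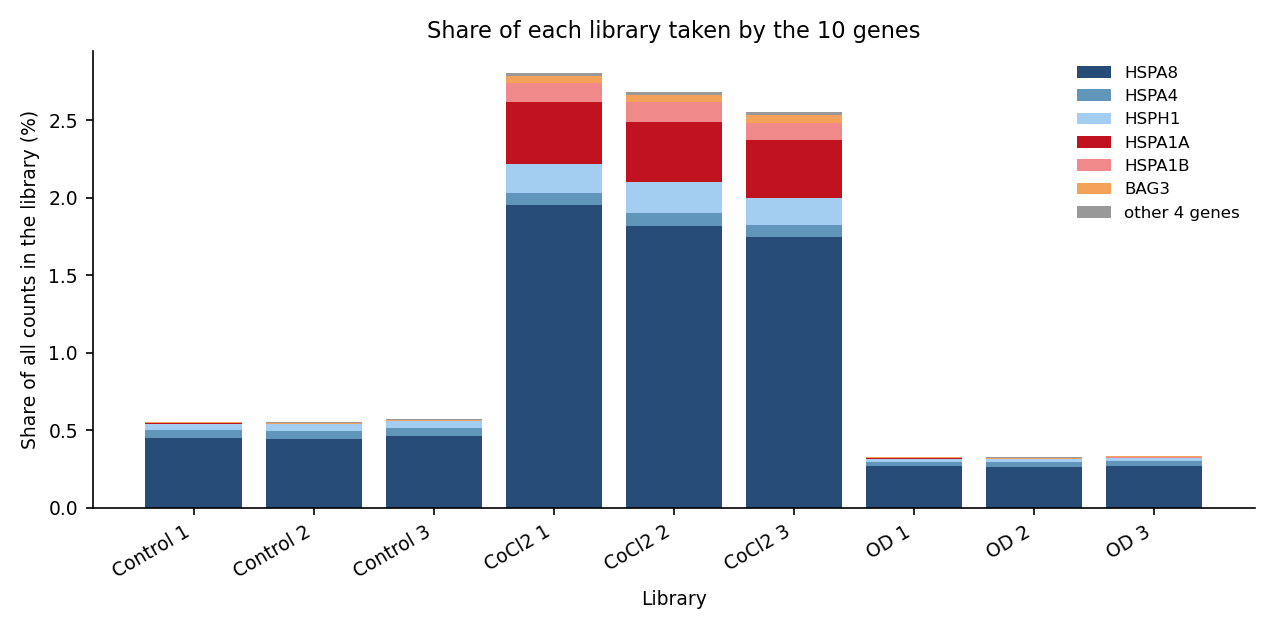
Share of each library's counts taken by the 10 genes, in percent, with 1 bar per library stacked by gene. The CoCl2 bars reach 2.55 to 2.81% and the others stay at or below 0.569%, and HSPA8 is the largest part of every bar.

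With OD, which shares its Control libraries with the CoCl2 comparison, most of the genes lay below Control. On the log2 scale these falls were smaller than the rises with CoCl2, but only slightly for HSPA4 (-0.91 against 1.15) and HSPA1L (-1.23 against 1.49). On library size alone the rises of HSPA4 and HSPA1L were 0.64 and 0.98. Their falls with OD were larger, at -0.94 to -0.87 and -1.36 to -1.09 over the alternatives. 1 gene, HSPA6, was called higher and 2, HSPH1 and HSPA1L, were called lower, while 9.09% of all genes tested were called higher and 4.16% lower. By adjusted p alone 2 of the 10 were higher and 8 lower, against 32.3% and 33.3% of all genes tested. In 9 of the 10 the OD and Control libraries did not overlap, as in 68% of all genes tested, and HSPA4L was the exception. The median log2 fold change was -0.56, with -0.47 over the inducible and -0.80 over the constitutive genes, against -0.01 over all genes tested.

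HSPH1 fell from 372 ± 21.1 CPM to 172 ± 5.11 with OD, where it had 3688, 3876 and 3337 counts, a log2 fold change of -1.11 (SE 0.044). HSPA1L fell from 2.50 ± 0.458 to 1.06 ± 0.0926 CPM on 21, 25 and 21 counts, a change of -1.23 (SE 0.215). HSPA4 was at 248 ± 10.2 CPM with 5263, 5553 and 4868 counts, and its change of -0.91 (SE 0.041) stayed inside the fold threshold. HSPA8 also stayed inside it. It had 52281, 51592 and 44196 counts or 2339 ± 43.9 CPM with OD, a change of -0.80 (SE 0.043), and its rank by counts went from 10 in Control to between 18 and 20.

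HSPA1A and HSPA1B were lower with OD than in Control by less. HSPA1A had 430, 488 and 392 counts or 20.7 ± 1.08 CPM, a log2 fold change of -0.65 (SE 0.066). HSPA1B had 294, 284 and 193 counts or 12.1 ± 1.60 CPM, a change of -0.47 (SE 0.080). HSPA2 was at 4.82 ± 0.445 CPM (-0.40, SE 0.119) and HSPA4L at 7.29 ± 0.795 CPM (-0.29, SE 0.111), the smallest difference of the set.

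BAG3 and HSPA6 were higher with OD. BAG3 had 1364, 1329 and 1133 counts or 60.4 ± 1.48 CPM, all above the 45.9 to 50.1 CPM of the Control libraries, and its log2 fold change of 0.34 (SE 0.051) stayed inside the fold threshold. HSPA6 had 5, 5 and 12 counts with OD and 1 in each Control library, a ratio of 6.58 on summed counts with a 95% exact interval of 1.98 to 34.3. Its fitted change of 2.57 (SE 0.664) rests on these few counts, was 1.96 without OD replicate 3, and was not tested where at least 10 counts were required or in the edgeR fit of the 6 libraries alone. HSPA6 thus remained below 1 CPM with OD.

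Between the treatments, all 10 genes were called higher with CoCl2 than with OD and no library overlapped, while 17.5% of all genes tested were called higher and 23.8% lower and 83.8% did not overlap. The log2 differences ran from 1.23 (SE 0.101) for HSPA4L to 9.23 (SE 0.108) for HSPA6, with a median of 3.33. They were 7.90 for HSPA1A, 6.98 for HSPA1B, 3.79 for HSPH1, 3.34 for BAG3 and 3.33 for HSPA8. In 8 genes these exceed the differences between CoCl2 and Control, because OD lay below Control there. In BAG3 and HSPA6, where OD lay above Control, they are smaller. The CoCl2 dose was 300 μM and the OD dose 5 μM, so the values compare these cultures and not the compounds at equal dose. Inducible counts per constitutive count were 0.102 ± 0.00208 with OD, within the range of the Control libraries, 0.0975 to 0.107.

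The order of levels per kilobase with OD was that of Control except among the lowest genes, with HSPA8 at 1033, HSPA4 at 52.0, HSPH1 at 32.9, BAG3 at 23.6, HSPA1A at 8.62, HSPA1B at 4.80, HSPA2 at 1.93, HSPA4L at 0.687, HSPA1L at 0.384 and HSPA6 at 0.154. HSPH1 stood 1.39 times above BAG3 there and 3.80 times above it in Control.

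The genes also differ in structure and in how far their reads can be assigned. In GENCODE release 44 on GRCh38, HSPA1A (chr6:31815543-31817946), HSPA1B (chr6:31827738-31830254), HSPA6 (chr1:161524540-161526894) and HSPA2 (chr14:64535905-64546173) have a canonical transcript of 1 exon, whereas HSPH1 (chr13:31134973-31162388) has 18, BAG3 (chr10:119651380-119677819) 4, HSPA8 (chr11:123057489-123063230) 9, HSPA4 (chr5:133052013-133106449) 19, HSPA4L (chr4:127781821-127840733) 19 and HSPA1L (chr6:31809619-31815283) 2. The median log2 fold change with CoCl2 was 6.88 over the 4 single-exon genes, from 1.67 to 11.80, and 2.01 over the other 6, from 0.94 to 3.67. Of the 4 single-exon genes 3 are inducible, so exon number and class go together here. HSPA6, with 1 count in each Control library, sets the upper end of the single-exon genes and enters their median. It passed the filter on low counts only through its CoCl2 libraries.

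Of the 75-base windows of HSPA1A, 73.8% also occur in another transcript, here HSPA1B, and of those of HSPA1B 73.3%, with 70.2% in HSPA1A. How the authors' counting treated reads that fit both genes is not given in the sources used here, so the values of either gene alone are uncertain. With the counts of both summed, the change with CoCl2 was 7.04 and with OD -0.58, both close to those of HSPA1A. HSPA1A had 1.93 times the counts of HSPA1B in Control (1.81 to 2.11), 3.24 times with CoCl2 (3.11 to 3.35) and 1.74 times with OD (1.46 to 2.03). The ratio in the CoCl2 libraries thus lay above that in all other libraries. HSPA1B also shares 36.6% of its exonic bases with an unnamed gene on its strand, and HSPA4L 5.05% with an antisense gene.

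**Figure D4:**
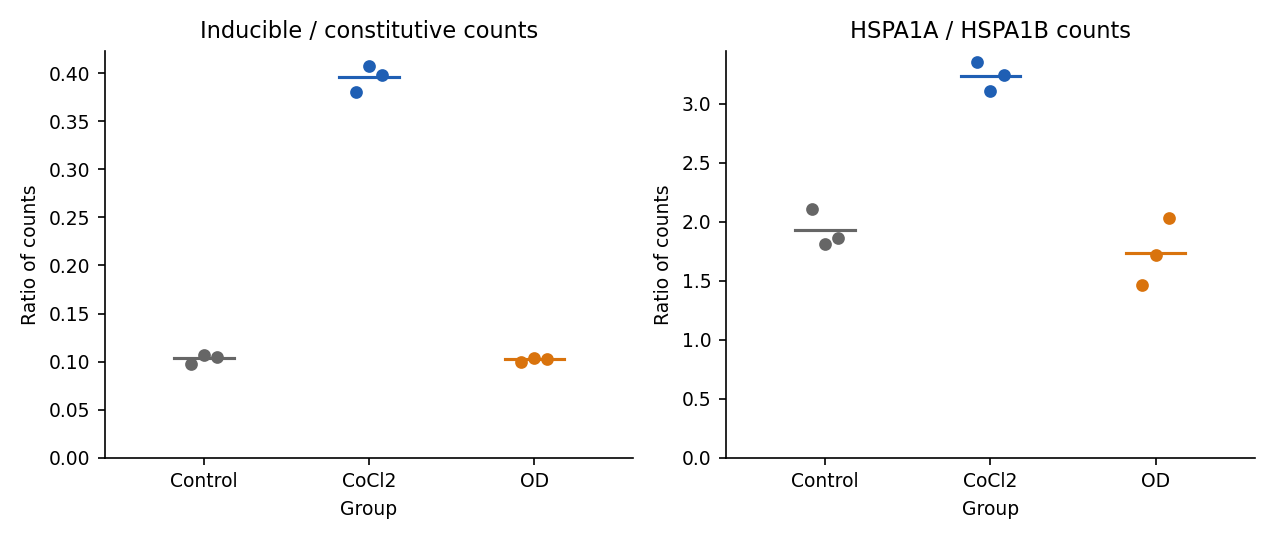
Ratio of counts in each library, with 1 point per library and a bar at the group mean. Left, the 5 inducible genes per the 5 constitutive genes, which is 0.380 to 0.408 with CoCl2 and 0.0975 to 0.107 in the other groups, and right, HSPA1A per HSPA1B, which is highest with CoCl2.

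HSPA6 has a near copy, the pseudogene HSPA7, in which 35.3% of its 75-base windows occur. HSPA7 had 1 count in each Control library, 36, 22 and 36 with CoCl2 and 0 with OD, where 0 counts allow up to 3 in a library. Its summed counts with CoCl2 were 37.0 times those in Control, with a 95% exact interval of 12.3 to 183. Of the 75-base windows of HSPA7, 43.4% occur in HSPA6, and the part of HSPA6 reads in this rise was not tested. The 15 HSPA8 pseudogenes in the table summed to 79 to 106 counts in Control, 299 to 401 with CoCl2 and 52 to 60 with OD, 0.0876 to 0.144% of HSPA8. Their sum moved in the same order as HSPA8, and the part of shared reads in it was not tested. HSPH1, BAG3, HSPA4 and HSPA2 share no 75-base window with another transcript.

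The partners of HSP70 were taken from lists of 44 genes by role, of which 43 were tested. With CoCl2, 25 were called higher and 2 lower, against 19.9% and 23.4% of all genes tested. Their median log2 fold change was 1.11. With OD, 1 was called higher and 0 lower at a median of -0.24, against 9.09% and 4.16% of all genes tested. By adjusted p alone 16 were higher and 23 lower with OD, against 32.3% and 33.3% of all genes tested. With CoCl2, 6441 of all 15944 genes tested were higher and 6819 lower by adjusted p alone. On library size alone 14 in place of 25 were called higher with CoCl2, and AHSA1, BAG1, HSF2, HSPBP1 and STIP1, described below, were not among them. Adjusted p-values below are from the quasi-likelihood test of edgeR with Benjamini-Hochberg adjustment over all 15944 genes. The partner lists were chosen with earlier results of these data known, and the genes named have the largest called changes. These p-values thus describe the genes and give no independent support.

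Of the 10 J-domain proteins that hand substrates to HSP70, 8 were called higher with CoCl2 and 1 lower. By adjusted p alone 9 were higher and 1 lower. DNAJB1 rose by a log2 fold change of 3.40 (SE 0.046, adjusted p = 1.98e-58), DNAJA4 by 3.38 (SE 0.141, adjusted p = 8.62e-32) and DNAJB4 by 3.20 (SE 0.114, adjusted p = 2.47e-33). DNAJB5, named as the single gene of its list that was lower, had a change of -1.07 (adjusted p = 9.33e-08). Of the 9 exchange factors other than BAG3 and the HSP110 proteins, BAG1 rose by 1.38 (adjusted p = 1.36e-33) and HSPBP1 by 1.16 (adjusted p = 4.7e-30), and by adjusted p alone 8 were higher and 1 lower. With OD none of the genes of both lists was called, although by adjusted p alone 4 J-domain genes were higher and 5 lower, and 3 exchange factors were higher and 4 lower.

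Among 8 adaptors, HSP90 genes and the ubiquitin ligase of the system, 6 were called higher with CoCl2. By adjusted p alone 7 were higher and 1 lower. HSP90AA1, the inducible HSP90 to which HSP70 passes substrates, rose by 2.24 (SE 0.043, adjusted p = 4.95e-50), AHSA1, which activates the HSP90 ATPase, by 1.45 (adjusted p = 1.34e-40) and STIP1, the adaptor between both chaperones, by 1.17 (adjusted p = 5.8e-36). With OD all 8 were lower by adjusted p, as were 33.3% of all genes tested. Their median was -0.65, and none passed the fold threshold. HSP90AA1 changed there by -0.94 (adjusted p = 1.91e-29), near HSPA8 at -0.80.

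The 5 tested genes linked to BAG3 all rose with CoCl2. CRYAB, a small heat-shock protein, rose by 5.03 (SE 0.173, adjusted p = 2.73e-36), MAP1LC3B, the LC3 protein of autophagosomes, by 3.49 (adjusted p = 1.97e-59) and SQSTM1, the autophagy receptor p62, by 3.15 (adjusted p = 2.53e-58). HSF2 was the only factor called among 4 (1.04, adjusted p = 7.55e-22), also not called without a filter on low counts, and HSF1, named after its values were seen, changed by 0.71 (adjusted p = 3.11e-18), inside the fold threshold. Of 7 further HSP70 relatives in the endoplasmic reticulum, mitochondria or of divergent sequence, 3 were called higher and 1 lower with CoCl2. By adjusted p alone 5 were higher and 1 lower. HSPA13 rose by 2.59 (adjusted p = 1.16e-47), HSPA5, the HSP70 of the endoplasmic reticulum, by 2.17 (adjusted p = 7.84e-49), and HSPA12B fell by 2.32 on the log2 scale (adjusted p = 1.69e-14). HSPA13 was also the partner gene called with OD, at 1.08 (adjusted p = 3.01e-25). By adjusted p alone with OD, 4 of the tested genes linked to BAG3 were higher and 1 lower, at a median of 0.64. Of the 7 further HSP70 relatives 4 were higher and 3 lower, and of the 4 factors 1 was higher and 2 lower. All genes tested gave 32.3% higher and 33.3% lower.

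**Figure D5:**
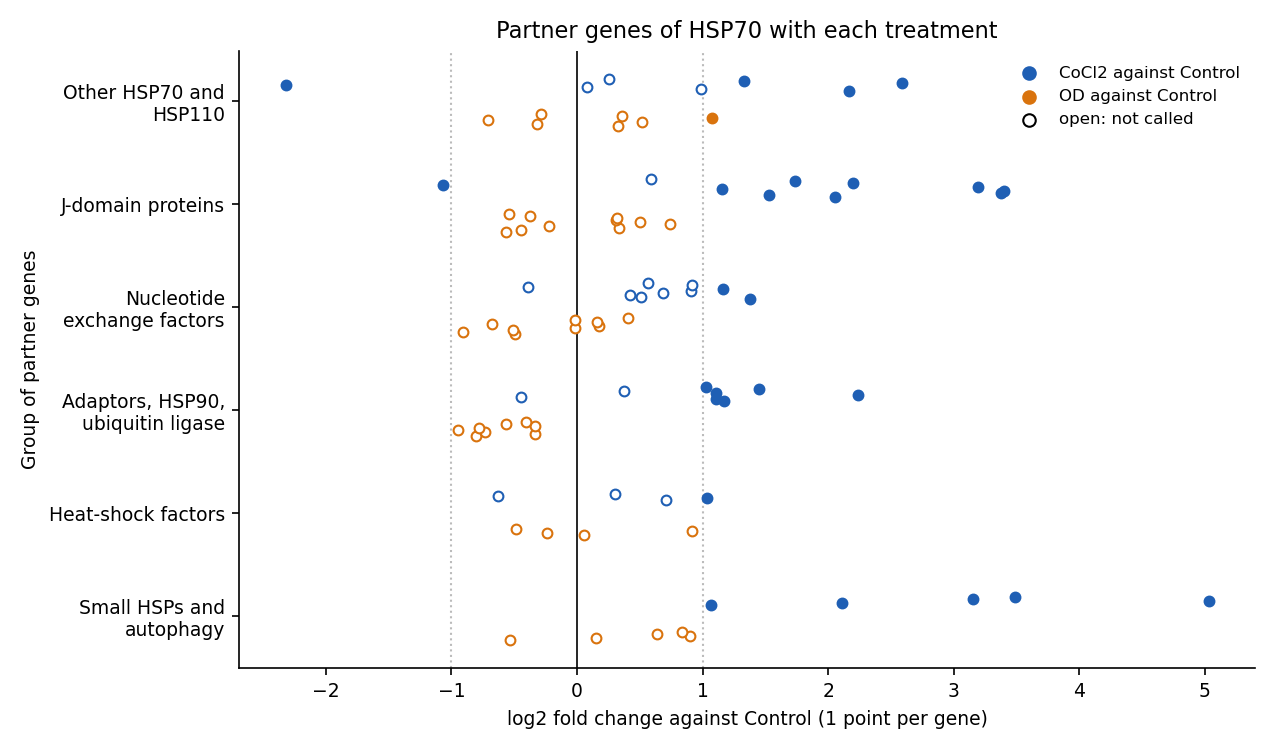
Log2 fold change against Control of the 43 tested partner genes, 1 point per gene, by group, with CoCl2 in blue and OD in orange, filled where called, and dotted lines at the fold threshold. With CoCl2 most points lie to the right, from -2.32 to 5.03, and with OD between -0.94 and 1.08.

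Of the 44 partner genes, 36 had a promoter window in RefSeq. The 3-unit heat-shock element was found in 3 of them, HSP90AA1 and, named for this match, DNAJB6 and HSP90AB1. The 2-unit pair, added to the search after windows had been seen, was in 11 genes. Of all windows 0.441% held the element and 11.6% the pair. These shares are per window, whereas a partner gene had up to 3 windows and counted if any matched.

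The genes most like HSPA1A and HSPA8 were found by the root mean square difference of log2 CPM from the Control mean over the 6 treated libraries, among 13385 genes with the 10 described here left out. Nearest to HSPA1A were ARC (0.78), CCN2 (0.98), ZFAND2A (1.14), LINC02204 (1.50) and CDKN1C (1.63), whose log2 fold changes with CoCl2 were 5.19 to 6.46, below the 7.26 of HSPA1A. Nearest to HSPA8 were FBXO30 (0.19), H2BC9 (0.20), AP000648.4 (0.22), NRDE2 (0.23) and HSP90AA1 (0.23). The neighbours of HSPA8 thus included HSP90AA1 of its own chaperone system. Genes averaging under 1 CPM were not searched either. By fitted change with CoCl2, HSPA1A ranked 28 and HSPA8 647 of 15944 genes, so far fewer genes could lie near HSPA1A. HSPA1B, at rank 40, was among the genes left out. The larger distances around HSPA1A therefore cannot show that its pattern was less shared than that of HSPA8.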

How the data were processed

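Messenger RNA of uCaco-2 was measured in 9 libraries (3 each of Control, CoCl2 and OD) as single-end reads of poly(A)-selected stranded libraries. According to the methods and the submitters' processing notes, reads were checked with FastQC 0.11.9, trimmed with cutadapt 2.10 and mapped on GRCh38 with STAR 2.7.5b. The authors deposited raw counts per gene symbol without normalization. The counting tool, strand setting and treatment of reads that fit several genes are not given in the sources used here. All 9 columns matched a sample by name, and 0 columns were left unused. The authors tested with DESeq2 and required an FDR below 0.05 with an absolute log2 fold change over 1, the limits used here too.

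TMM factors were computed in edgeR 4.0.16 (R 4.3.3), which also removed genes with low counts by its own filter and fitted a robust quasi-likelihood model over the 9 libraries, with Benjamini-Hochberg adjustment over 15944 genes in each of 3 comparisons. The script was tested on simulated data. The members, the lists of partner genes and the tests were chosen with earlier results of these data known. The text names the 10 genes, at most the 3 largest called changes per partner list in each comparison with Control, and the 5 genes most like HSPA1A and HSPA8. DNAJB5, HSF1, DNAJB6, HSP90AB1, HSPA7 and the cell type markers singled out were named after their values or windows were seen. Transcript lengths and positions came from GENCODE release 44, and promoter windows from RefSeq. Replicate pairs of a group differed by more than sampling noise (chi-square divided by its degrees of freedom 1.74 to 3.05), so each library is 1 replicate. Intervals on counts cover counting error only, because they pool the 3 libraries of a group. They leave out the differences between replicates and are too narrow for a comparison of groups. No molecular identifiers were used. At these depths the standard error of a log2 fold change was 0.040 for HSPA4 and 0.664 for HSPA6 with OD. Alternatives were RLE factors, library size alone, no filter, at least 10 counts in every library, DESeq2 1.42.0 on 9 or 6 libraries, edgeR on 6 libraries, a replicate block, each library left out, thinned counts, the adjusted p alone, and HSPA1A and HSPA1B summed.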

Additional observations from a re-analysis of the deposited data

How the results depend on the processing

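All 10 genes were higher with CoCl2 than in Control under each alternative in which they were tested, and 0 values reversed. On library size alone the median change of all genes tested with CoCl2 went from -0.05 to -0.55 on the log2 scale, the share of called genes that were higher from 46% to 23.9%, and partner genes called higher from 25 to 14. HSPA4 (0.64) and HSPA1L (0.98) against Control and HSPA4L against OD (0.68) were then no longer called. Partner genes called lower with CoCl2 were 2, but 1 where at least 10 counts were required and 5 by adjusted p alone, as against OD, where 3 became 5. With OD, members called higher were 1, but 0 where at least 10 counts were required or in edgeR on 6 libraries, as HSPA6 was then not tested, and 2 by adjusted p alone, while members called lower went from 2 to 8. Partner genes called higher with OD were 1 to 2 with 1 library left out, and 2 with thinned counts. The added gene was CRYAB in the fits without Control 1, without OD 2 and with thinned counts. By adjusted p alone they were 16, and those called lower were 23 in place of 0. Library numbers are shared by the groups, but the deviations of same-numbered libraries correlated by only -0.061 to 0.126, so they share a number and are not known to be paired. With a replicate block, 9 of the 10 genes were called higher with CoCl2, as without it, and their median was 2.60. HSPA6 in Control, at 1 count per library, is the value most limited by depth.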
